A study of Mus musculus with 4 samples.

Results

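Immediate early genes are transcribed within minutes of a signal at the cell surface, without new protein synthesis. The 10 genes described here encode transcription factors of families that hold such genes. They are the AP-1 proteins Fos, Fosb, Fosl2, Jun, Junb and Jund, the zinc finger factors Egr1, Egr2 and Egr3, and the orphan nuclear receptor Nr4a1. The genes were chosen by name and are 10 of 28307 genes or names on the array, read by 13 of its 41174 gene probes. All 10 were well above background on at least 1 array by their brightest probe, and 9 were so on all 4. Expression was measured in B220 B cells of naive mice on Agilent arrays of a single colour (Cy3), from freshly isolated cells of the marrow and the spleen. Mice labelled Mef2c KO were set against wild-type (WT) mice of the C57BL/6 strain, and each tissue of each genotype was hybridised to 1 array. Mef2c is a MADS box transcription factor that works in lymphocytes and muscle. The sources used here do not give the deleted part of the gene, the promoter of any Cre used, the strain background of the KO, the way B220 cells were isolated, or the age, sex and number of mice behind an array. Differences within a tissue are thus without a replicate check, and precision is limited by there being 4 arrays.

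Fos and Jun proteins pair through leucine zippers to form AP-1, which binds TGANTCA and related elements. In B lymphocytes genes of these families are induced downstream of the antigen receptor and other inputs. MAP kinases act on the ternary complex factors that sit with SRF at CArG boxes, and other kinases act on CREB family proteins at TGACG elements. Egr proteins bind GC-rich sites and are restrained by the Nab corepressors, while Nr4a1 is widely used as a read-out of antigen receptor signalling in lymphocytes. MEF2 proteins bind A/T-rich elements in several immediate early promoters, among them that of Jun, and the motif counts below were made for this reason.

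The promoter stretches of 4 members are shown because they hold the elements named above. They are from RefSeq on mouse build GRCm38.p6. Windows of 250 bases upstream of a start were searched for 8 of the 10 genes, with 12 windows in all. Egr1 and Egr3 were not among the genes searched, so whether their promoters hold these motifs was not tested. Capitals mark the motifs. The Jun stretch (bases 100 to 1 before the start, chr4:95052223-95052322, minus strand) holds TGACNTCA and a MEF2 box. The Fos stretch (bases 140 to 41, chr12:85473750-85473849, plus strand) holds TGACG at 2 places. The Nr4a1 stretch (bases 100 to 1, chr15:101266746-101266845, plus strand) holds 2 TGACG on the other strand, read as CGTCA, on either side of GCGNGGGCG, also on the other strand. The Egr2 stretch (bases 87 to 58, chr10:67537782-67537811, plus strand) holds a CArG box.
Jun: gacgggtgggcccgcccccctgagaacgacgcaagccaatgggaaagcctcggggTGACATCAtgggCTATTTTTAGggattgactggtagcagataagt
Fos: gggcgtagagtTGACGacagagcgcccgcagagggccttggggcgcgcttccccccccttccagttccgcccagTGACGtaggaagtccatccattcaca
Nr4a1: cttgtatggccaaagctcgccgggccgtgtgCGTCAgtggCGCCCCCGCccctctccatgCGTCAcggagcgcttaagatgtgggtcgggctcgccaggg
Egr2: gccctgttcctcagtCCATATATGGgcagc

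Both strands of every window were searched for 7 motifs. A MEF2 box was in 2.92% of the 32851 mouse promoter windows, a CArG box in 1.47%, TGACNTCA in 7.49%, TGACG in 17.8%, TGANTCA in 6.75%, GCGNGGGCG in 4.7% and AAAGGTCA, the element of Nr4a1, in 1.34%. Where the base N of TGACNTCA is G, that motif contains TGACG. Of the 8 genes searched, Jun was the one with a MEF2 box, 33 to 24 bases before the start, beside TGACNTCA at 45 to 38. TGACG was also found in Fosb, Junb and Egr2, GCGNGGGCG also in Fosb and Fosl2, and a CArG box at 2 places in Egr2. The window of Jund held none of the 7, and TGANTCA and AAAGGTCA were in no window of the 8 genes. A match describes letters in a window and is not a measured binding site.

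The arrays differed in ways that touch every value below. The processed signal has arbitrary units, and a level is its log2 value after subtraction of that of the array's 75th percentile, which lay between 965.73 and 1011.8 on 3 arrays and at 523.68 on spleen KO. On spleen KO 59.28% of gene spots were well above background, against 69.05% to 71.98% elsewhere. Ribosomal RNA probes also stood apart: a probe of Rn18s, picked after its values were seen, had signals of 37484 on KO and 192687 on WT in the marrow, and 1984 on KO and 776230 on WT in the spleen. Both marrow arrays shared slide 1 and scan 1, both spleen arrays slide 2 and scan 2, and KO was at position 1 of each slide, so slide and tissue, and position and genotype, cannot be told apart. Mef2c itself had signals of 5511, 4218, 11838 and 8534 in the same order by its brighter probe, which checks no label because the deleted part is not known. Of the B cell identity genes, 10 of 10 on the array were well above background on every array. Neutrophil markers were above background too, 16 of 16 on both marrow arrays, 12 on spleen KO and 15 on spleen WT, as were 17 or 18 of 18 macrophage and monocyte markers. In such bulk RNA fewer cells of a type and less RNA per cell cannot be told apart.

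Fos was higher on both KO arrays than on both WT arrays. Its probe, spotted 10 times on each array and placed on mouse build mm9 at chr12:86817900-86817959, had mean signals of 3344 on KO and 903 on WT in the marrow, and 2275 on KO and 1598 on WT in the spleen. The levels were 1.72, -0.10, 2.12 and 0.72 in that order. The arrays of a genotype are of different tissues, and the share of all genes that split this way was not computed. KO exceeded WT by 1.82 on the log2 scale (3.53-fold) in the marrow and by 1.40 (2.64-fold) in the spleen. The spread of repeated spots was far smaller, with an SD of 0.0609 to 0.0713 on the log2 scale, but it covers 1 array's spotting and not the mice. Before any scaling the KO signal was 3.70 times that of WT in the marrow and 1.42 times in the spleen.

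**Figure D1:**
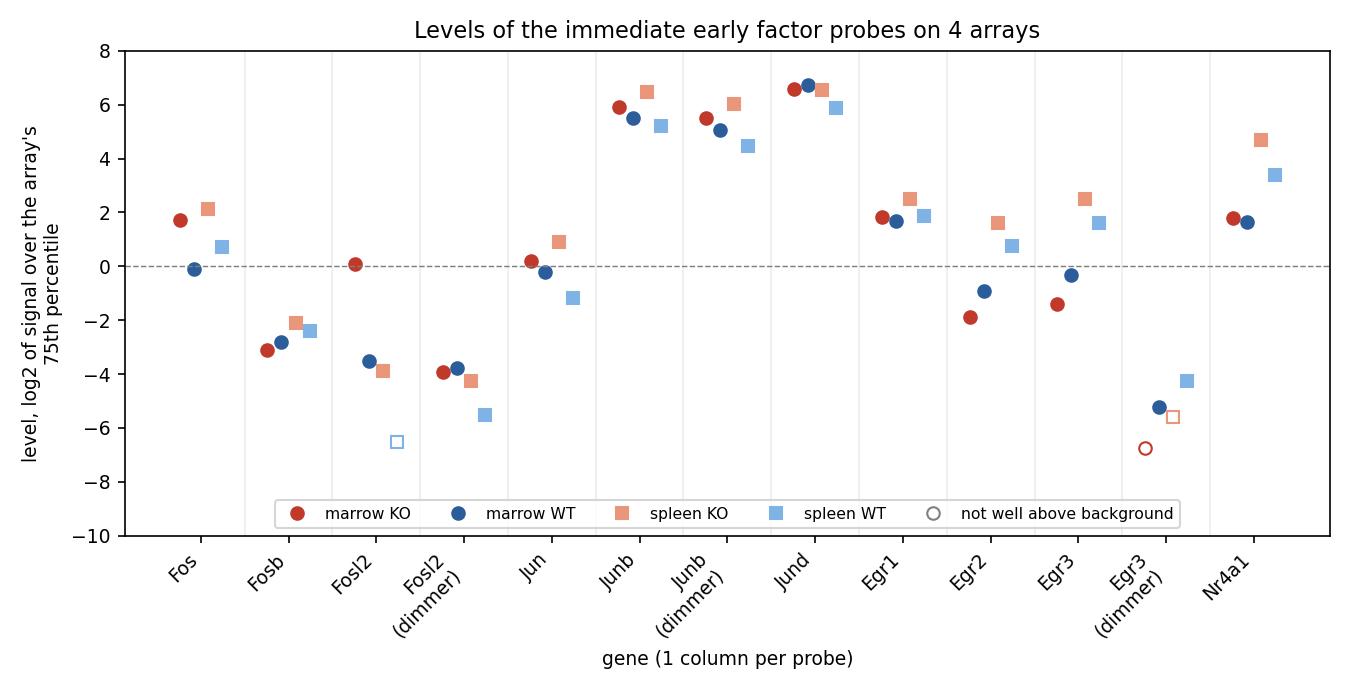
Level of each probe on the 4 arrays, as log2 of the signal over the array's 75th percentile, with 1 column per probe and 1 point per array; hollow points were not well above background, and heights of different columns are not comparable. Fos, Jun and Junb sit higher on both KO arrays than on both WT arrays, and Egr2, Nr4a1 and the brighter Egr3 probe higher on both spleen arrays than on both marrow arrays. The share of all genes that split in these ways was not computed.

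Fosl2, which encodes the AP-1 protein Fra-2, gave the widest difference of the 10 genes in the marrow, by 1 of its 2 probes. The brighter probe (mm9 chr5:32459624-32459683) had signals of 1063 on KO and 84.4 on WT in the marrow, and 35.4 on KO and 10.5 on WT in the spleen, the last of these not well above background. Marrow KO stood alone, 3.59 above marrow WT (12.0-fold), and in the spleen KO was at least 3.39-fold higher. The dimmer probe, 4536 bases upstream at chr5:32455088-32455147, had signals of 67.2, 71.0, 27.3 and 21.2 in the same order. By that probe the marrow arrays differed by -0.15, so both probes disagree there, while spleen KO was 1.25 above spleen WT (2.39-fold) and both spleen arrays were below both marrow arrays. The first 30 of the 60 bases of each probe are shown because the marrow value turns on which is read.
Fosl2, brighter probe: ttgaggaagaaaatattcagctttgtataa
Fosl2, dimmer probe: gattgctgagctgcagaaggagaaggagaa

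Fosb, another partner of Jun proteins, differed little between genotypes. Its signals were 117 on KO and 138 on WT in the marrow, and 122 on KO and 186 on WT in the spleen (mm9 chr7:19888477-19888536). KO minus WT was -0.31 in the marrow and 0.28 in the spleen, the latter -0.04 with the 75th percentile over probes above background on all arrays, and spleen KO lay 1.01 (2.02-fold) above marrow KO.

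Jun, the main partner of Fos, was apart by genotype mostly in the spleen. Its 10 spots (mm9 chr4:94715864-94715923) had mean signals of 1146 on KO and 839 on WT in the marrow, and 987 on KO and 428 on WT in the spleen. Spleen WT was the lowest of the 4 by level as well as by signal. The differences were 2.10 (4.29-fold) in the spleen and 0.38 (1.3-fold) in the marrow, with spot SDs of 0.0354 to 0.0651. Without scaling, spleen KO still had 2.31 times the signal of spleen WT.

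**Figure D2:**
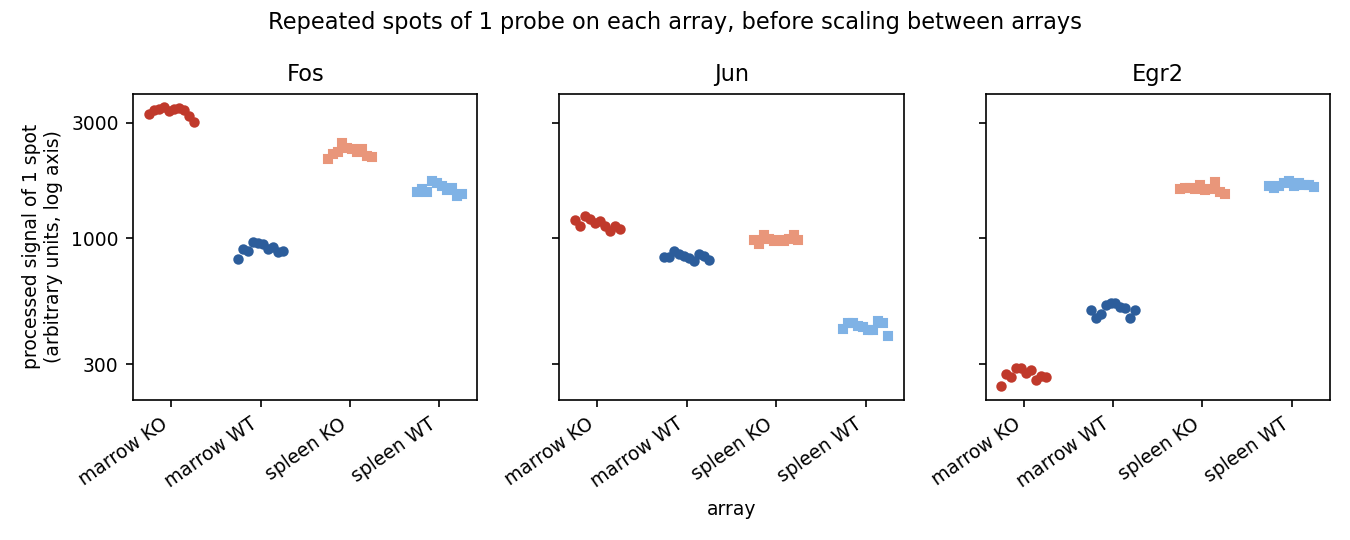
Processed signal of each repeated spot (log axis, arbitrary units, before scaling between arrays) of the probes of Fos, Jun and Egr2, with 1 point per spot and 4 arrays per panel. Spots of an array lie close together: those of Fos run from 3033 to 3481 on marrow KO and from 816 to 965 on marrow WT, and those of Egr2 nearly coincide on the spleen arrays before scaling, where the outlier spot dropped on spleen WT is drawn too.

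Junb, an AP-1 protein that can hold Jun activity down, and Jund, its broadly expressed relative, were measured far above background. Junb had signals of 60264 on KO and 44340 on WT in the marrow, and 46528 on KO and 35522 on WT in the spleen (mm9 chr8:87500881-87500940). KO exceeded WT in both tissues, by 1.28 (2.43-fold) in the spleen and 0.38 (1.3-fold) in the marrow. The spleen value fell to 0.21 with cyclic loess and was 2-fold under 5 of 8 alternatives. Its other probe, which overlaps the first by 22 bases, gave 1.57 and 0.43. Jund had signals of 96370, 103293, 48303 and 56330 in the same order (mm9 chr8:73224436-73224495), with differences of 0.67 in the spleen and -0.17 in the marrow. The Jund signal itself was lower on spleen KO than on spleen WT, and the scaled value was -0.51 with cyclic loess, so its direction in the spleen depended on the scaling.

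Egr1 was close on all 4 arrays. Its signals, on chromosome 18, were 3581 on KO and 3109 on WT in the marrow, and 2992 on KO and 3533 on WT in the spleen. KO minus WT was 0.14 in the marrow and 0.65 (1.57-fold) in the spleen, where the unscaled signal was lower on KO.

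Egr2 and Egr3, which are induced by antigen receptor signals and restrain lymphocyte activation, were higher in the spleen than in the marrow, with KO below WT in the marrow and above it in the spleen. The spots of Egr2, 10 per array with 1 outlier dropped on spleen WT (mm9 chr10:67004758-67004817) had mean signals of 270 on KO and 505 on WT in the marrow, and 1603 on KO and 1653 on WT in the spleen. Marrow KO was lowest, and spots of the marrow arrays did not overlap, with a range of 244 to 290 on KO and 465 to 540 on WT. KO minus WT was -0.97 (1.96-fold lower) in the marrow and 0.85 in the spleen. Before scaling, the spleen KO signal was 0.97 times that of spleen WT.

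Egr3 followed Egr2 by its brighter probe. This probe, from a cDNA clone (mm9 chr14:70481979-70482038), had signals of 384 on KO and 779 on WT in the marrow, and 2970 on KO and 2984 on WT in the spleen. KO minus WT was -1.09 (2.13-fold lower) in the marrow and 0.89 in the spleen, again with an unscaled spleen ratio of 0.995. The dimmer probe, 3152 bases upstream, had signals of 9.41, 26.1, 10.8 and 50.5 in the same order and was not well above background on either KO array. By it KO was at least 1.65-fold lower in the marrow and at least 1.61-fold lower in the spleen, so the probes share a direction in the marrow and oppose each other in the spleen. Of the array's genes with 2 or more measured probes, 49.2% had probes over 2-fold apart in the spleen comparison and 12.5% in that of the marrow. The first 30 bases of both probes are given for the same reason as for Fosl2.
Egr3, brighter probe: tgcactctaacttatgtgaactgagagaaa
Egr3, dimmer probe: tccttccaactggtgccaggacaacatcat

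Nr4a1 had signals of 3547 on KO and 2995 on WT in the marrow, and 13431 on KO and 10131 on WT in the spleen (mm9 chr15:101105071-101105130). Both spleen arrays were above both marrow arrays. KO minus WT was 1.30 (2.46-fold) in the spleen and 0.18 (1.13-fold) in the marrow. The spleen value ran from 0.60 with quantile normalization to 1.73 with the array median, and was 2-fold under 5 of 8 alternatives. Before scaling, the spleen KO signal was 1.33 times that of spleen WT.

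The marrow comparison asked how cells of Mef2c KO mice differ from those of C57BL/6 mice where B cells develop. Fos and, by its brighter probe, Fosl2 were at least 2-fold higher on marrow KO and Egr3 at least 2-fold lower, with Egr2 just inside that limit. The other 6 genes differed by 0.38 or less in size. That made 3 of 10 genes 2-fold apart, 2 higher and 1 lower, where 13.2% of 21233 measured genes were (8.37% higher and 4.87% lower). The median over the 10 genes was 0.16 and that over all measured genes -0.07. Of all genes 2-fold apart, 63.2% were higher, and 75.3% with cyclic loess.

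Other genes of the pathway differed in both directions in the marrow, to be read against the 13.2% of all measured genes that were 2-fold apart. Among 13 measured AP-1 relatives and partners the median was 0.11, and 2 exceeded 2-fold, both higher. They were Jdp2, a partner that represses AP-1, at 1.93, and the small Maf protein gene Mafg at 1.14. Of 3 measured relatives of Egr and Nr4a genes, Nab2, the corepressor that Egr proteins both induce and bind, was lower by a difference of -1.36. None of 10 inducers of these promoters (SRF, its cofactors and CREB family genes) and 1 of 15 MAP kinase genes, Map2k7 at -1.02, passed 2-fold. The 44 other measured immediate early genes had a median of -0.24, with 4 of them 2-fold higher and 6 lower. Id1, a dominant inhibitor of basic helix-loop-helix factors, differed by 2.50 and Ier3, a survival gene, by 2.21. Rgs1, which switches off G protein signals, differed by -1.80 and the mRNA decay factor gene Zfp36l2 by -2.35. Of 11 measured AP-1 and Egr target genes 3 were higher and 1 lower, led by the gelatinase gene Mmp9 at 3.99, which is also a neutrophil marker.

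Some markers of other cells also differed between the marrow arrays, where 8.37% of all measured genes were at least 2-fold higher on KO and 4.87% lower. Of 16 neutrophil markers 15 were at least 2-fold higher on marrow KO, with a median of 2.44, and the log2 of their summed level was 10.5 on KO and 8.78 on WT in the marrow, and 7.18 on KO and 3.51 on WT in the spleen. Of 18 macrophage and monocyte markers 4 were at least 2-fold higher on marrow KO and 0 lower, and the median was -0.00. Their sums were 8.52, 6.92, 8.26 and 7.25 in the same order, and in the marrow Lyz2, the lysozyme gene, differed by 1.66 and Ly6c2 by 2.88. Of 10 B cell identity genes 4 were at least 2-fold lower on marrow KO, among them Cd22 at -2.43 and Cd79a at -1.87, and the sums were 8.97 and 9.24. The part of these cells in the values of Fos and Fosl2 was not tested. The 2 genes nearest to Fos over the 4 arrays, by Euclidean distance between centred levels among 16508 genes, were Cybb, the phagocyte oxidase subunit, at 0.0264 and Ift43 at 0.206. Cybb had levels of 4.10 on KO and 2.27 on WT in the marrow, and 4.52 on KO and 3.10 on WT in the spleen.

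**Figure D3:**
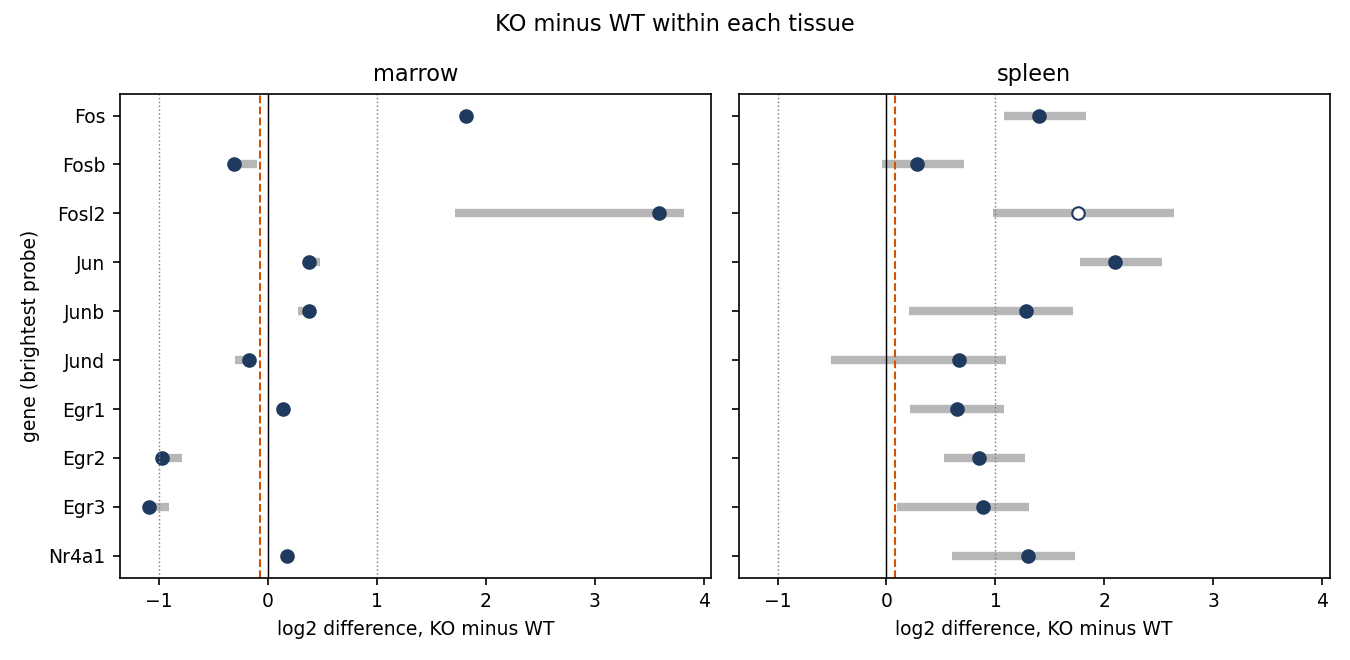
Log2 difference KO minus WT of the 10 genes by their brightest probe, in the marrow and the spleen; points are the reported values, the hollow point is a lower bound, grey bars span 8 alternative ways of processing, dotted lines mark 2-fold and the dashed line is the median of all measured genes. In the marrow Fos stays between 1.76 and 1.86 while Fosl2 runs from 1.72 to 3.82, and in the spleen the bars of Fosb and Jund cross 0. The bars leave out the dimmer probe read alone, which gave -0.15 for Fosl2 in the marrow and a lower KO level for Egr3 in the spleen.

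The spleen comparison asked the same of cells in the spleen. All 10 genes were higher on spleen KO by the reported scaling, as were 52.9% of 19812 measured genes. Jund was lower under cyclic loess and Fosb under another percentile. Unscaled signals of Fosb, Jund, Egr1, Egr2 and Egr3 were lower on spleen KO than on spleen WT. By the reported scaling Fos, Fosl2, Jun, Junb and Nr4a1 were at least 2-fold higher. The difference of Jun was 2.10, and those of Fos, Nr4a1 and Junb were 1.40, 1.30 and 1.28. That made 5 of 10 genes 2-fold apart, all higher, where 34.2% of 19812 measured genes were (19.6% higher and 14.6% lower). The median was 1.08 over the 10 genes, 0.08 over all measured genes and 0.71 over the brightest 25% of them. This comparison leaned on the scaling of spleen KO, and on brightness: among the brightest 25% of genes, which held Junb, Jund, Egr1, Egr3 and Nr4a1, 36.1% were at least 2-fold higher, against 9.85% among the dimmest 25%. With quantile normalization, cyclic loess, or the 75th percentile over probes above background on all arrays, 3 genes (Fos, Fosl2 and Jun) were 2-fold higher. Scaling by the array median moved the median of all genes to 0.51 and the other percentile moved it to -0.14. Of all genes 2-fold apart 57.4% were higher as reported, 79.7% with the array median and 37.1% with that percentile.

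Heat shock genes and some other immediate early genes also had higher levels on spleen KO. The 44 other measured immediate early genes included 17 (38.6%) that were 2-fold higher and 4 lower. Over all measured genes 19.6% were higher and 14.6% lower, and among the brightest 25% of them 36.1% were higher. How bright the 44 genes were as a set was not computed. Their median of 0.85 stayed between 0.36 and 1.27 over the alternatives. Rgs1 differed by 4.76 (27.2-fold), the MAP kinase phosphatase gene Dusp1 by 2.97 (7.83-fold), the stress sensor gene Gadd45g by 2.06 and Rgs2 by 1.97. Of 11 measured heat shock genes 9 were 2-fold higher and 1 lower, and the median was 1.68. With quantile normalization and with cyclic loess 5 of them were 2-fold higher, with medians of 0.90 and 0.81. The inducible chaperone gene Hspa1a had signals of 3494 on spleen KO and 42.7 on spleen WT (152-fold), and 127 and 209 on marrow KO and WT. The summed heat shock level was 9.39 on spleen KO, 7.54 on spleen WT, 8.44 on marrow KO and 8.70 on marrow WT on the log2 scale. By scaled level spleen KO was also highest for 8 of the 10 factors, the exceptions being Fosl2 and Jund. The share of all genes highest on spleen KO was not computed. By unscaled signal spleen KO was highest for Nr4a1 alone. The part of what these measures and the ribosomal RNA signals track in the spleen values was not tested.

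Genes upstream and downstream of the factors showed no common direction in the spleen. Their counts are to be read against the 34.2% of all measured genes that were 2-fold apart there (19.6% higher and 14.6% lower). The 13 AP-1 relatives and partners included 4 that were 2-fold higher and 2 lower, and their median of 0.23 was -0.09 with the percentile over probes above background on all arrays. Atf3, a stress-induced CREB family factor, and Maff, a small Maf protein gene, both differed by 2.53, Mafg by -2.60 and Atf7 by -2.50. Among 3 relatives of Egr and Nr4a genes, Nab1, the other Egr corepressor gene, differed by 2.35. Of 10 inducers 4 were higher, led by the SRF coactivator gene Mrtfb at 1.66, and 1 lower, the acetyltransferase gene Ep300 at -1.52. Of 15 MAP kinase genes 1 was higher, the JNK gene Mapk8 at 1.65, and 3 were lower: Map2k7, which activates JNK, at -2.96, the ERK gene Mapk3 at -2.36 and Braf at -1.09. Their medians of 0.74 and 0.27 took values down to -0.04 and -0.31 over the alternatives. Of 10 measured AP-1 and Egr targets 2 were higher, among them the adhesion molecule gene Icam1 at 1.45, and 3 lower, with Id3, an Egr target, at -2.58 and the ubiquitin ligase gene Cblb at -2.01, and the median of -0.06 was 0.36 with the array median. Among 15 measured neutrophil markers 8 were 2-fold higher on spleen KO and 1 lower, and among 18 macrophage and monocyte markers 10 were higher and 1 lower. Of 10 B cell identity genes 3 were higher and 5 lower.

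**Figure D4:**
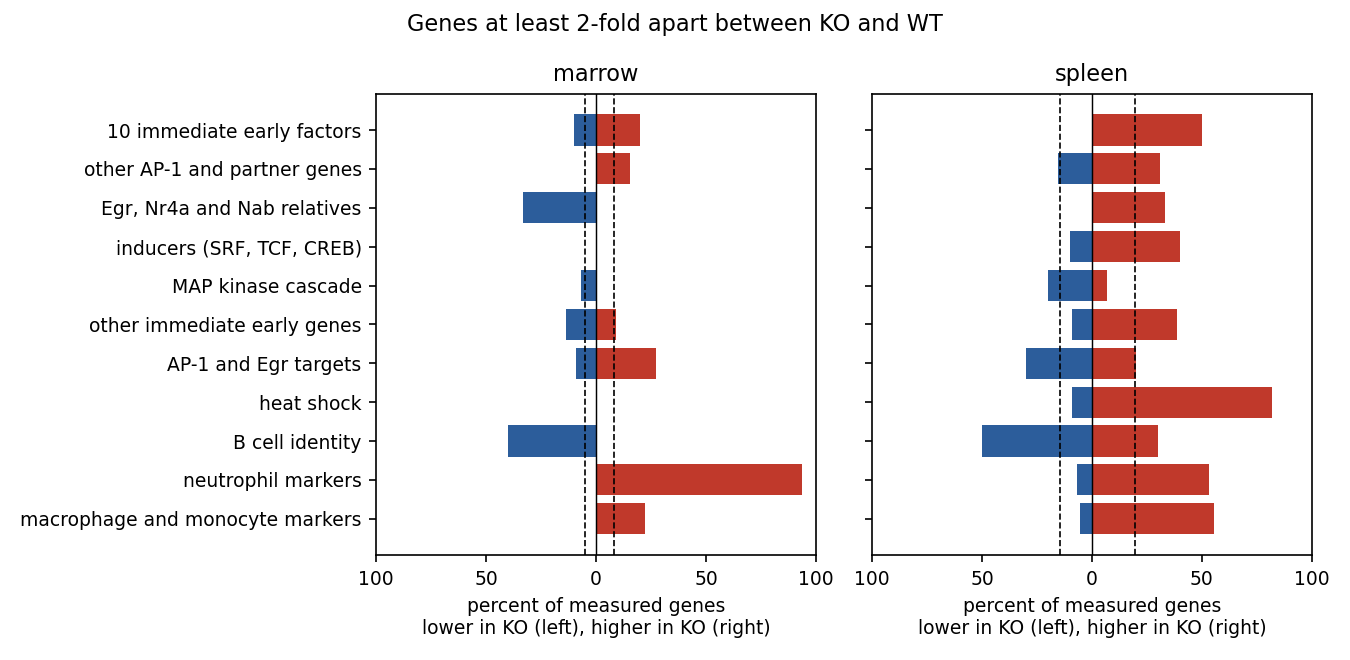
Percent of the measured genes of each list that were at least 2-fold lower (left, blue) or higher (right, red) on the KO array than on the WT array, in the marrow and the spleen; dashed lines give the share of all measured genes in each direction. In the marrow 15 of 16 neutrophil markers are higher, and in the spleen 9 of 11 heat shock genes, of which 5 are with quantile normalization or cyclic loess.

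Across both tissues, 0 of the 10 genes passed the test for an effect of genotype. The test was limma's moderated fit with tissue and genotype as terms on the 4 arrays, which has 1 residual degree of freedom. It takes the other factor as a repeat, so its standard errors and p-values do not measure the spread between mice. The limma test called 2 of 22060 genes (0.00907%), while 2323 had an unadjusted p under 0.05. Fosl2 had a log2 difference of 3.12 with a standard error of 0.543 and a limma adjusted p of 0.204. That fit uses its spleen WT level, which was not well above background, so the size is not a measured one, and it was 1.83 with the mean over both probes. Fos had a log2 difference of 1.61 with a standard error of 0.523 and a limma adjusted p of 0.389. Jun, at 1.24, had a limma adjusted p of 0.508, and the other 7 lay between -0.10 and 0.83. Over 8 alternatives the limma adjusted p of Fos ran from 0.0188 to 0.556 and that of Fosl2, over 7, from 0.000314 to 0.556. None of the 16 gene lists held a gene called by genotype. Whether the genotype difference itself differed between the tissues could not be tested with 1 array per group.

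The last comparison asked how the tissues differ in each genotype. By their brightest probes, Nr4a1, Egr2 and Egr3 were higher in the spleen and Fosl2 higher in the marrow, in WT and in KO alike. Between the WT arrays, spleen exceeded marrow by 1.75 (3.36-fold) for Nr4a1, 1.70 (3.25-fold) for Egr2 and 1.93 (3.81-fold) for Egr3, while Fosl2 was at least 4.39-fold lower. Between the KO arrays the differences were 2.87 (7.32-fold), 3.52 (11.5-fold) and 3.90 (15.0-fold), with Fosl2 at -3.96 (15.6-fold lower) and Fosb at 1.01. The dimmer Fosl2 probe differed by -1.75 (3.36-fold lower) in WT and by -0.35 (1.27-fold lower) in KO. The dimmer Egr3 probe differed by 0.94 (1.92-fold) in WT and was above background on neither KO array. In WT 4 of 10 genes were 2-fold apart, 3 higher and 1 lower, where 31.2% of 21447 measured genes were (15.6% higher and 15.6% lower). In KO 5 of 10 were, 4 higher and 1 lower, where 29.5% of 20320 were (15.6% higher and 14.0% lower). The median over the 10 genes was 0.30 in WT and 0.71 in KO, against -0.09 and 0.01 over all measured genes. Of all genes 2-fold apart 49.9% were higher in the spleen in WT and 52.7% in KO, and with the array median 38.9% and 65.1%. Unscaled signals kept these directions: the spleen signal of Nr4a1 was 3.38 times that of the marrow in WT and 3.79 times in KO, and for Egr2 it was 3.27 and 5.93 times.

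**Figure D5:**
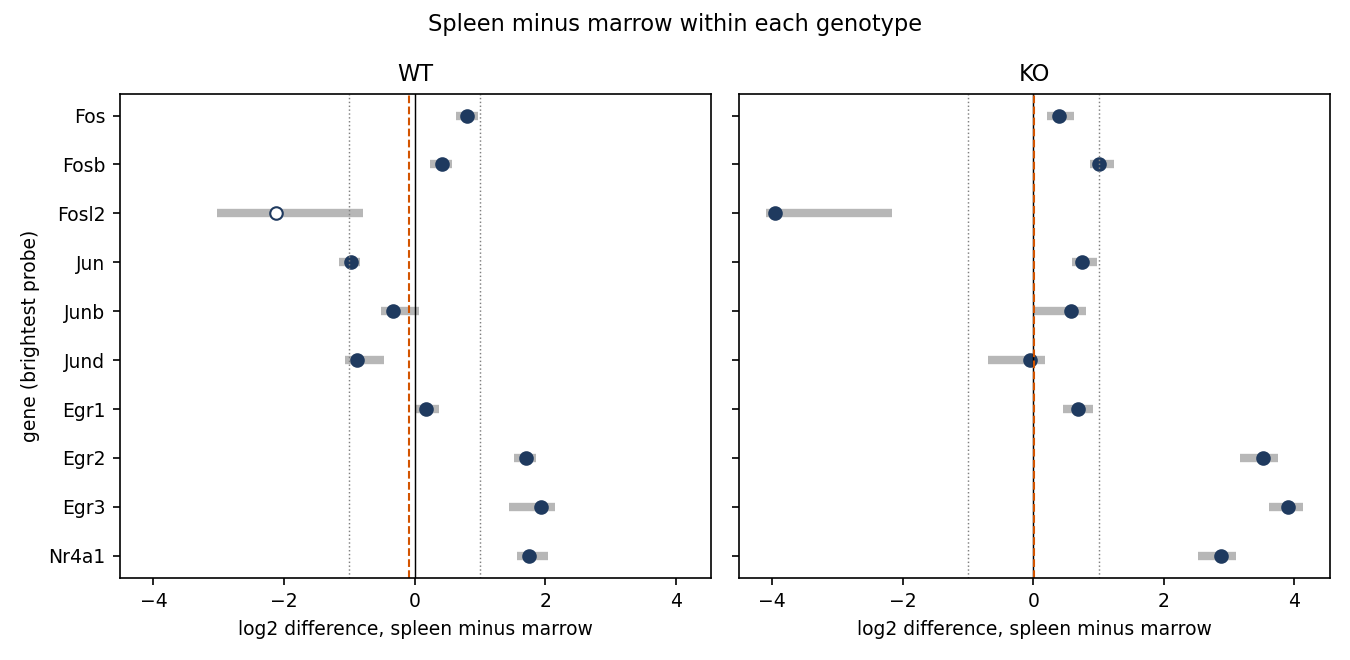
Log2 difference spleen minus marrow of the 10 genes by their brightest probe, in WT and in KO; points are the reported values, the hollow point is a bound, grey bars span 8 alternative ways of processing, dotted lines mark 2-fold and the dashed line is the median of all measured genes. Egr2, Egr3 and Nr4a1 lie to the right of 2-fold in both panels over their whole bars, and Jun lies at -0.98 in WT and 0.74 in KO. The bars leave out the dimmer probe read alone, by which Egr3 differed by 0.94 in WT and was not measured in KO.

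In the same limma fit, 4 of the 10 genes differed between the tissues at an adjusted p under 0.05, 3 higher in the spleen and 1 lower, where 7.04% of 22060 genes did (2.37% higher and 4.67% lower). Here WT and KO served as repeats of each other, so the limma p-values do not measure the spread between mice. Fosl2 differed by -3.49 with a standard error of 0.543 (limma adjusted p 0.00799), with the same limit on spleen WT, and by -2.27 with the mean over both probes. Egr3 differed by 2.92 with 0.619 (limma adjusted p 0.0269), Egr2 by 2.61 with 0.605 (limma adjusted p 0.0379) and Nr4a1 by 2.31 with 0.553 (limma adjusted p 0.0426). The last 3 were called under 5 of 8 alternatives and missed the threshold with the percentile over probes above background on all arrays, cyclic loess and the mean over a gene's probes, with limma adjusted p up to 0.0868. Fosl2 was called under all 7 alternatives that gave it a value. The other 6 genes had limma adjusted p from 0.551 for Fosb to 0.956 for Jun.

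Other genes of the pathway also differed by tissue in this fit, where 7.04% of all tested genes did. Of 13 AP-1 partners 1 was called: Batf3, a factor of dendritic and T cells that pairs with Jun proteins, was higher in the spleen by 2.97 (limma adjusted p 0.0125). Of 44 other immediate early genes 6 were called. Dusp4, a MAP kinase phosphatase gene, was higher by 4.10 (limma adjusted p 0.00417) and the activation marker gene Cd83 by 3.55 (limma adjusted p 0.0184), and 4 were lower: Id1, Ier3, Plk2 and Arc. Of 11 AP-1 and Egr targets 2 were lower. Batf3, Dusp4, Cd83, Plk2 and Arc were named after their values were seen. Of the cell markers, 13 of 16 neutrophil genes were lower in the spleen by the limma test, as were 7 of 10 stromal and 5 of 6 platelet genes. Of 18 macrophage and monocyte genes 7 were higher and 2 lower, and 2 of 13 T cell genes and 1 of 10 B cell identity genes were higher. Their part in the values of Fosl2, Egr2, Egr3 and Nr4a1 was not tested.

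Likeness of pattern over the 4 arrays was measured for the 9 genes above background on all of them, without Fosl2. Egr2 and Egr3 were the closest pair by Euclidean distance between centred levels (0.318), followed by Fosb and Egr1 (0.498), Junb and Egr1 (0.568) and Jun and Junb (0.629). The genes of the array nearest to Egr2 were Ly86, which encodes the MD-1 partner of a B cell surface receptor, and Fcna, a ficolin gene, both at 0.177. Ms4a4b and Serpinb7 were nearest to Egr3 at 0.225 and 0.263, and Amz1 and A530032D15Rik nearest to Nr4a1 at 0.112 and 0.161. Jun had Nck1 (0.0417) and Eapp (0.0448) as neighbours, and Junb had Faim (0.0563) and 1700049L16Rik (0.0662). For Egr1 they were LTO1 (0.0234) and Ezr (0.0337), for Fosb Kcng2 (0.048) and Smek1 (0.0659), and for Jund Myo7b (0.0324) and Taf4 (0.0412). Each distance rests on 4 arrays and carries no test.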

How the data were processed

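Each deposited scanner file holds the intensity values of 1 array on a linear scale. Per the file headers, the authors extracted them with Feature Extraction 10.5.1.1 on a design placed on mm9, corrected the processed signal for background and recorded no scaling between arrays. Intensity values in the deposited series matrix were equal to these at every one of the 45018 spots. Groups came from the labels, and 0 columns belonged to no sample. The 10 genes and 16 lists were chosen with earlier results of these data known.

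Control spots and 72 to 85 outlier spots per array were dropped (43379 gene spots, 0 saturated). Signals were taken to log2, each array's 75th percentile was subtracted, and repeated spots were averaged per probe. A probe was named by its accession through RefSeq GRCm38.p6 (25097 of 41174), by a current symbol (6333) or by the file's name (9744), and a gene was its brightest probe. A gene was measured where well above background on at least 1 array compared. Where 1 array was not, the difference is a bound against the higher of the probe's own level and the lowest level above background on that array, written at least N-fold. Within a tissue no p was computed. The test was limma 3.58.1 in R 4.3.3 with Benjamini-Hochberg adjustment (threshold 0.05), tested on simulated data. Named genes were the 10 factors, at most 4 genes per list and comparison with the largest differences, and the 2 nearest genes of each factor. Alternatives were 4 scalings, normexp (offset 50), no background filter, other choices of probe and 1.5-fold. The probe chosen without spleen KO and the dimmer probe were added after seeing the data.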

Additional observations from a re-analysis of the deposited data

Results flagged for a closer look

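With KO minus WT, 4 of the 10 genes had opposite signs in the tissues, and these differences between tissues were not tested because no residual degree of freedom is available. The share of all measured genes with opposite signs was computed neither between the tissues nor between the genotypes. Of all measured genes 44.5% were higher on KO in the marrow and 52.9% in the spleen. Egr3 differed by -1.09 in the marrow and 0.89 in the spleen, 1.97 apart, and Egr2 by -0.97 and 0.85, 1.82 apart. Jund differed by -0.17 and 0.67, 0.84 apart, and Fosb by -0.31 and 0.28, 0.59 apart. With spleen minus marrow, 2 genes had opposite signs in the genotypes, also untested: Jun at -0.98 in WT and 0.74 in KO, 1.72 apart, and Junb at -0.33 and 0.58, 0.91 apart. The spleen values of Fosb and Jund changed sign under at least 1 scaling, and the spleen minus marrow values of Junb changed sign with cyclic loess, to 0.06 in WT and -0.01 in KO. The dimmer Egr3 probe was lower on KO in both tissues.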

How the results depend on the processing

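With 1 array per group, leaving out an array ends the 2 comparisons it enters, does not alter the other 2, and leaves the limma fit without a residual degree of freedom. No paired analysis was possible because each group has 1 array. The cause of the changes below was not tested. The number of the 10 genes at least 2-fold apart was 3 in the marrow and 1 with the dimmer probes. In the spleen it was 5, and 9 with the array median or at 1.5-fold, and 3 with quantile normalization, cyclic loess or the 75th percentile over probes above background on all arrays. Between WT tissues it was 4, and 7 at 1.5-fold, and between KO tissues 5, and 3 with the dimmer probes. The limma genotype count of 2 genes became 443 with the array median, 649 with normexp, 593 with no filter, 461 over genes above background on all arrays, and 0 with cyclic loess, that percentile or the mean over probes (limma unadjusted p under 0.05 for 2109, 1947 and 2253 genes). The limma tissue count of 1554 became 666 with that percentile, 2376 with normexp and 2686 with no filter. Fosl2 in the marrow took -0.15 with its dimmer probe. In the limma genotype effect, Fosb (-0.01) took 0.26 with cyclic loess, 0.20 with quantile normalization, 0.21 with the array median and 0.08 with normexp, Jund (0.25) took -0.39 and -0.13 with the first 2, Egr2 (-0.06) took 0.16 with the array median and 0.02 with normexp, and Egr3 (-0.10) took 0.12 with the array median. Signal over background limits Fosl2 on spleen WT and the dimmer Egr3 probe on both KO arrays.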

Other observations

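Markers of further cell types were read on the same arrays. Over all measured genes 8.37% were at least 2-fold higher on KO and 4.87% lower in the marrow. In the spleen these shares were 19.6% and 14.6%. Of 10 stromal and endothelial markers 9 were at least 2-fold higher on marrow KO than on marrow WT and 0 lower, with a median of 1.96, and of 6 platelet markers 4 were higher, with a median of 1.38. Of 12 measured T cell markers 3 were higher on marrow KO, led by Cd3d at 3.78, and of 8 NK cell markers 1 was. Of 10 dendritic cell markers 1 was lower there, as was 1 of 6 erythroid markers. In the spleen 3 of 6 erythroid markers were higher on KO, with a median of 1.02. In the spleen T cell markers had 2 higher and 2 lower of 13, NK cell markers 1 and 3 of 8, dendritic cell markers 2 and 2 of 10, platelet markers 0 and 0 of 5 and stromal markers 1 and 2 of 8.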
